A study of Mus musculus with 12 samples.

Results

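Kidneys of mice given cisplatin together with the compound 84-B10 were compared with kidneys of mice given cisplatin alone, across all genes. The comparison used 8 of the 12 RNA sequencing libraries of the series, chosen by their labels: 4 of the combination group and 4 of the cisplatin group. The remaining 4 libraries, from vehicle mice, enter as levels beside the 2 groups and in the shared estimate of spread. All mice were C57BL/6, and total RNA of whole kidney was sequenced 72 h after the cisplatin or saline injection. The combination group had 84-B10 at 15 mg/kg for 48 h before cisplatin at 25 mg/kg, and daily doses afterwards. Cisplatin mice had the same intraperitoneal 25 mg/kg, and vehicle mice had saline. The labels conflict on whether cisplatin mice also received the 84-B10 pretreatment, so each library was placed by its treatment label. No group that received 84-B10 alone was analysed here, so every difference is between mice that all had cisplatin. Age and sex are not stated. The libraries are labelled biological replicates, and p-values measure the spread between them.

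Cisplatin is a platinum drug that is taken up by the renal tubule and injures the proximal tubule most, above all its straight last stretch (the S3 segment) in the outer medulla. The proximal tubule recovers most filtered solutes through Slc family transporters and carries digestive enzymes on its brush border. The thick ascending limb, which follows the loop of Henle's thin limbs, reabsorbs sodium chloride through the cotransporter Slc12a1 and secretes uromodulin. The title of the series names protection from this injury as the question, and 84-B10 has been described as an activator of the mitochondrial protease LONP1. In whole tissue, fewer cells of a type and less RNA per cell cannot be told apart.

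The difference between combination and cisplatin kidneys was small in number of genes and leaned to lower expression. Of 12428 genes tested, 275 (2.21%) passed an adjusted p of 0.05: 221 (1.78%) were lower in combination kidneys and 54 (0.435%) were higher. The test was limma on log2(FPKM + 1), two-sided, with Benjamini-Hochberg adjustment over all genes tested. FPKM are fragment counts scaled by transcript length and library size. At least a 2-fold change was reached by 69 of the lower genes (0.555% of those tested) and by none of the higher ones. The median log2 fold change was -0.65 among lower genes, 0.32 among higher genes and 0.02 over all genes tested. The largest increase was 0.74, for Mustn1, a small nuclear protein known from muscle. Libraries of the 2 groups did not overlap in 209 of the 221 lower genes and 53 of the 54 higher ones, against 526 lower (4.23%) and 498 higher (4.01%), or 1024 (8.24%), of all genes tested.

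**Figure D1:**
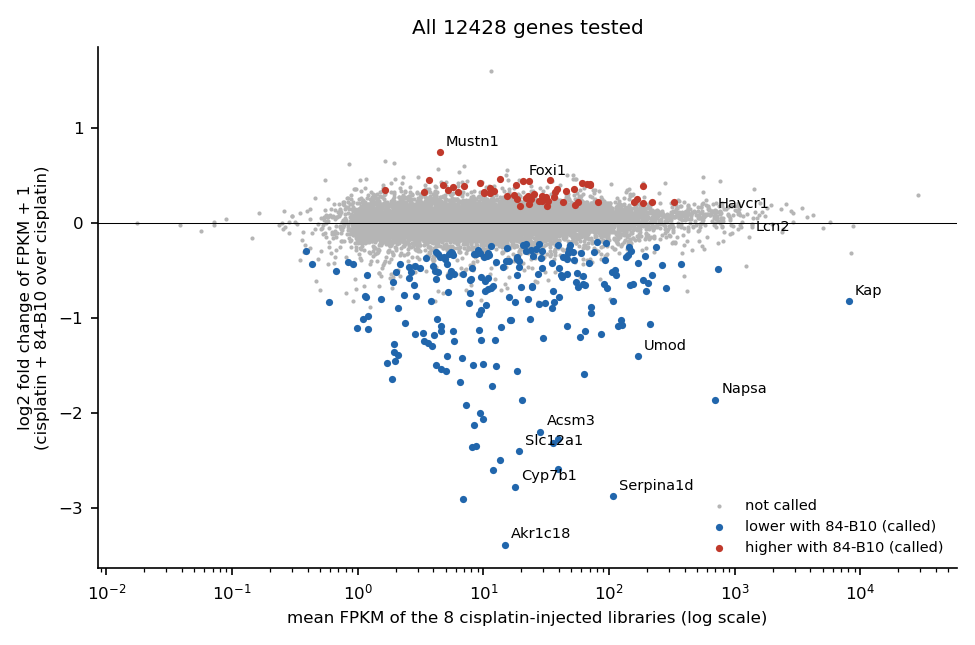
Each point is 1 of the 12428 genes tested, with its mean FPKM over the 8 libraries of cisplatin-injected mice on a log axis and its log2 fold change, combination over cisplatin, on the vertical axis. Blue points passed as lower and red points as higher; the blue points reach -3.38 (Akr1c18), whereas the red points stop at 0.74 (Mustn1).

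Membrane transporters were frequent among the genes lower in combination kidneys. Solute carriers (Slc symbols) made up 29 of the 221 lower genes (13.1%) and 2 of the 54 higher ones (3.70%), against 271 of the 12428 genes tested (2.18%). The cisplatin libraries themselves were spread out in these genes. Cisplatin library 2 was the lowest of its group in 149 of the 221 lower genes (67.4%, against 19.8% of all genes tested), and cisplatin library 1 was the highest in 124 (56.1%, against 27.9%). Vehicle libraries varied too, with library 1 lowest and library 3 highest at once in 59 of the 221 (26.7%, against 8.51%). Of the 275 calls, 137 held when any one of the 12 libraries was left out, 125 of them lower and 12 higher. Library depth was even where it was known, with estimated count totals of 17.47 to 18.17 M in combination libraries, 17.74 and 18.15 M in cisplatin libraries 3 and 4, and 15.76 to 16.52 M in vehicle libraries.

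The nephron segment lists held 36 of the 221 lower genes and 5 of the 54 higher ones, against 160 of the 12428 genes tested. The shares of their members that fell were highest for the straight proximal tubule and the thick ascending limb. The lists were chosen with earlier results of these data known, so their shares describe only the genes listed. Of 20 tested genes listed for the S3 segment, 15 (75.0%) fell in combination kidneys and none rose, with a list median log2 fold change of -1.57. The thick ascending limb list had 8 of 20 lower and none higher (median -0.32). For the first proximal segment (S1), 1 of 14 rose and none fell (median 0.29), and for S2, 3 of 12 fell and none rose (median -0.13). Of 35 genes shared by all proximal segments, 8 fell and none rose (median -0.07). The thin limb and inner medulla list had 2 of 10 lower (median -0.13), and the distal convoluted and connecting tubule list had no call among 18 (median 0.16). In the collecting duct, 3 of 14 principal cell genes (median 0.20) and 1 of 17 intercalated cell genes (median 0.22) rose. None of the genes listed for podocytes (12 tested, median 0.14), endothelial cells (15, 0.05), fibroblasts and mural cells (12, 0.04), macrophages (9, 0.07), neutrophils (8, -0.06) or red blood cells (5, -0.09) passed.

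**Figure D2:**
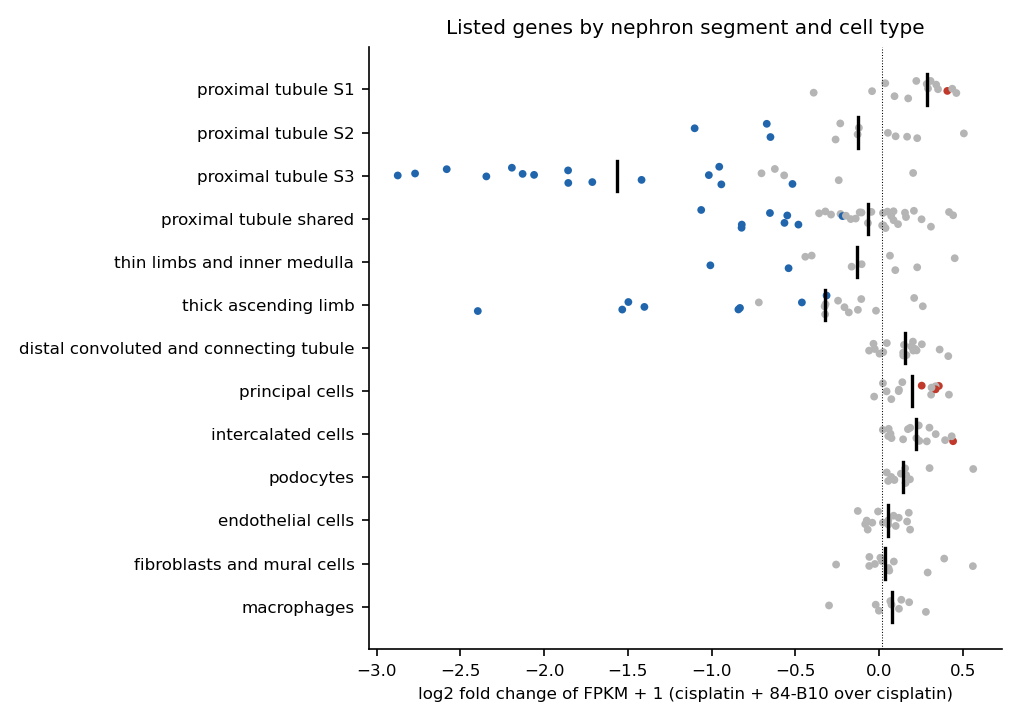
Log2 fold change, combination over cisplatin, of every tested gene in each segment or cell type list, with blue points lower and red points higher at an adjusted p under 0.05. The black bar is the list median and the dotted line the median of all genes tested (0.02); the S3 list lies lowest, with a median of -1.57.

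Summed over all its 21 genes, tested or not, the S3 list stood between 629.9 and 761 FPKM in combination libraries, against 1584 to 2448 FPKM in cisplatin libraries and 3262 to 4076 FPKM in vehicle libraries, with no overlap between groups. All 15 S3 calls were lower, and 13 of them held without any one library. The most abundant was Napsa (NCBI gene 16541), the aspartic protease napsin A. It had 317, 288, 301 and 291 FPKM in combination libraries 1 to 4, against 1234, 824, 1148 and 1193 FPKM in cisplatin libraries and 717, 859.6, 1052 and 935 FPKM in vehicle libraries. The 4 combination libraries lay within a narrow band below all of the others, and cisplatin and vehicle libraries overlapped. Its log2 fold change was -1.86 ± 0.13 (SE, n = 4 each; limma, Benjamini-Hochberg adjusted p = 6.79e-06).

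Several S3 carriers of organic anions fell, and so did Slc5a8. Slc5a8 (216225), a sodium-coupled carrier of lactate and short-chain fatty acids, had 5.3, 4.06, 4.91 and 5.26 FPKM in combination libraries, against 23.3, 14.2, 18.1 and 18.2 FPKM in cisplatin libraries and 59.8, 56.04, 58.7 and 59.8 FPKM in vehicle libraries. Slc22a7 (108114), the organic anion transporter OAT2, had 3.97, 2.5, 3.32 and 2.54 FPKM in combination libraries, against 23.9, 9.99, 14.2 and 18.4 FPKM in cisplatin libraries and 43.2, 45.3, 77.8 and 46.01 FPKM in vehicle libraries. For both genes the 3 groups did not overlap, and the log2 fold changes were -1.71 ± 0.11 (adjusted p = 4.44e-06) and -2.06 ± 0.23 (adjusted p = 0.000247; SE, n = 4, limma with Benjamini-Hochberg adjustment). Slc22a13, the urate and nicotinate carrier OAT10, ranged over 6.7 to 9.93 FPKM in combination libraries, against 21.8 to 42.9 FPKM in cisplatin libraries and 11.9 to 27.6 FPKM in vehicle libraries. Slc22a19, a further organic anion carrier, ranged over 1.76 to 2.84 FPKM in combination libraries, against 10.6 to 17.2 FPKM in cisplatin and 13.1 to 39.6 FPKM in vehicle libraries. Slc5a1, the glucose carrier SGLT1, was lower by a smaller step, at 4.28 to 8.27 FPKM in combination libraries, against 8.94 to 16.6 FPKM in cisplatin libraries and 14.3 to 16.1 FPKM in vehicle libraries. Slc16a14, of the monocarboxylate transporter family, did not pass and was the one tested S3 gene with a positive log2 fold change (0.20, limma adjusted p = 0.767).

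Slc7a13, the S3 carrier of aspartate, glutamate and cystine, differed from these. It had 3.53, 2.23, 2.46 and 2.79 FPKM in combination libraries, against 23.8, 4.69, 7.07 and 7.61 FPKM in cisplatin libraries and 360.1, 377, 417 and 390.2 FPKM in vehicle libraries. Cisplatin library 1 stood well above the other 3, and both cisplatin-injected groups lay far below vehicle. The log2 fold change was -1.42 (adjusted p = 0.0383 by limma), and the call was lost without 9 of the 12 libraries in turn, with an adjusted p of up to 0.116 without combination library 2. Nudt19, a peroxisomal enzyme that splits coenzyme A, was the other unstable S3 call: 86.8 ± 12.2 FPKM in combination kidneys, 125 ± 21 FPKM in cisplatin kidneys and 892 ± 93.1 FPKM in vehicle kidneys (SD, n = 4), with an adjusted p of 0.0477 by limma that reached 0.159 without combination library 2.

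Enzymes and receptors of the S3 list fell as well. Acsm3 (20216), a mitochondrial ligase that activates medium-chain fatty acids, had 9.68, 8.58, 8.54 and 10.5 FPKM in combination libraries, against 63.2, 36.2, 37.2 and 52.8 FPKM in cisplatin libraries and 301, 216, 349.9 and 219 FPKM in vehicle libraries. The groups did not overlap, and the log2 fold change was -2.19 ± 0.18 (SE, n = 4; limma adjusted p = 1.85e-05). Cyp7b1 (13123), which hydroxylates oxysterols, had 3.78, 3.74, 4.28 and 2.81 FPKM in combination libraries, against 40.7, 16.96, 31.8 and 39.2 FPKM in cisplatin libraries and 6.25, 9.98, 35.2 and 15.7 FPKM in vehicle libraries. Cisplatin and vehicle libraries overlapped for Cyp7b1, and the vehicle libraries themselves spread widely (log2 fold change -2.77 ± 0.39, limma adjusted p = 0.00161). Mep1b, the beta subunit of the brush border protease meprin, ranged over 1.48 to 2.85 FPKM in combination libraries, against 8.67 to 28.04 FPKM in cisplatin libraries and 29.2 to 59.1 FPKM in vehicle libraries. The growth hormone receptor gene Ghr averaged 81.4 ± 12.7 FPKM in combination kidneys, 166 ± 32.3 FPKM in cisplatin kidneys and 232 ± 22.3 FPKM in vehicle kidneys (SD, n = 4). Atp11a, a phospholipid flippase, averaged 48.6 ± 7.01 FPKM in combination kidneys, 95.03 ± 20.2 FPKM in cisplatin kidneys and 199 ± 19.4 FPKM in vehicle kidneys. Of the 5 tested S3 genes that did not pass, the most abundant was Aadat, an aminotransferase of lysine and kynurenine breakdown, at 20.8 ± 5.36 FPKM in combination kidneys and 32.7 ± 10.01 FPKM in cisplatin kidneys (log2 fold change -0.62, limma adjusted p = 0.121). With array weights Aadat passed, at a log2 fold change of -0.66 (limma adjusted p = 0.0342).

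**Figure D3:**
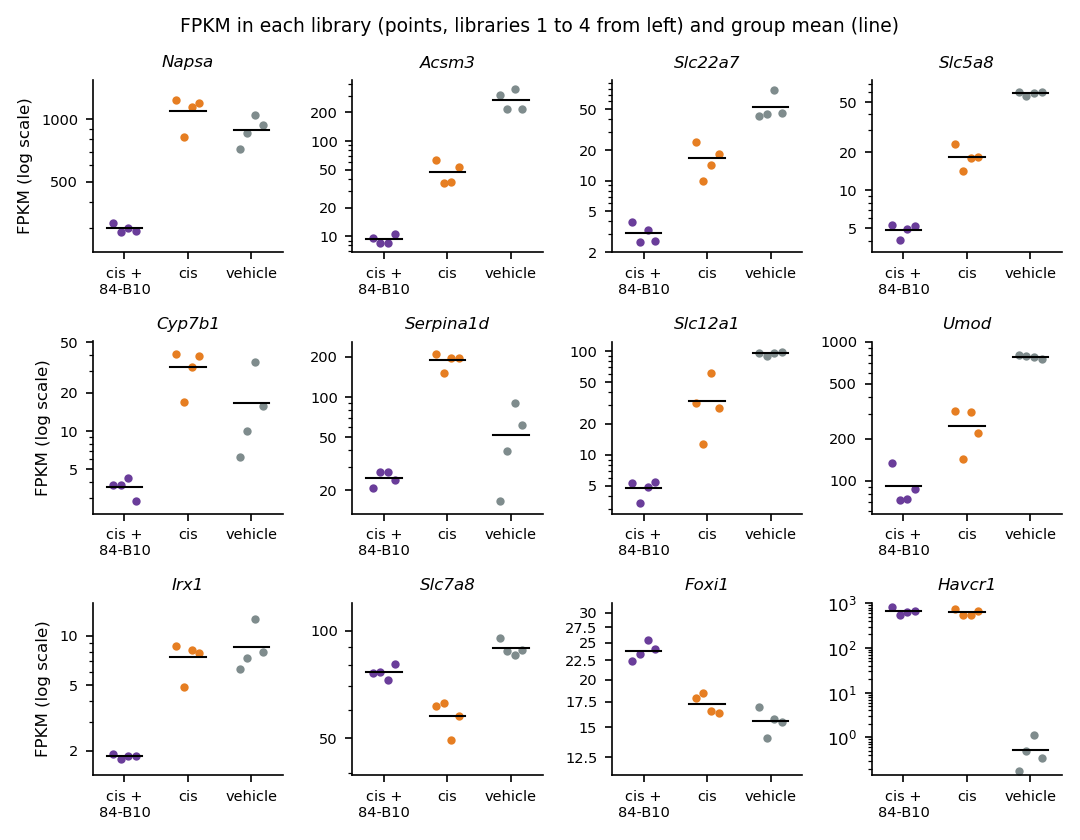
FPKM of 12 genes in every library on log axes, with combination, cisplatin and vehicle groups from left to right in each panel, libraries 1 to 4 from left to right in each group, and a line at the group mean. Napsa, Acsm3, Slc22a7, Slc5a8, Cyp7b1, Serpina1d, Slc12a1, Umod and Irx1 show combination libraries below all 4 cisplatin libraries, Slc7a8 and Foxi1 show them above, and Havcr1 overlaps.

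The Serpina family of protease inhibitors held the densest group of lower genes by symbol: 6 of 9 tested fell and none rose (median -1.56), and all 6 calls held without any one library. The family is best known for alpha-1-antitrypsin, which in mice is encoded by several nearly identical genes; Serpina1d and Serpina1f are also in the S3 list. Serpina1d (20703) had 20.9, 27.3, 27.2 and 23.8 FPKM in combination libraries, against 209, 152, 197 and 195 FPKM in cisplatin libraries and 16.7, 39.3, 89.7 and 61.3 FPKM in vehicle libraries. Its groups did not overlap between combination and cisplatin, cisplatin was the highest group, and combination libraries overlapped the lower end of vehicle (log2 fold change -2.87 ± 0.36, limma adjusted p = 0.000511). Serpina1a had 8.36, 11.2, 14.4 and 12.2 FPKM in combination libraries, against 63.8, 53.9, 71.4 and 53.2 FPKM in cisplatin libraries and 1.84, 5.2, 11.9 and 10.04 FPKM in vehicle libraries. Serpina1f ranged over 9.07 to 11.8 FPKM in combination libraries, against 47.98 to 80.4 FPKM in cisplatin libraries and 2.92 to 20.2 FPKM in vehicle libraries. The remaining calls were Serpina1b (log2 fold change -2.36), Serpina1c (-1.56) and Serpina10 (-0.80), an inhibitor of coagulation factors that was nearly silent in vehicle kidneys at 0.04 to 0.2 FPKM. Reads shared between near-identical copies could have been divided among Serpina1a to Serpina1d, so their separate levels are uncertain. Among the 3 that did not pass, Serpina3n, an acute phase inhibitor, was the most abundant at 18.3 ± 3.96 FPKM in combination kidneys and 26.9 ± 10.6 FPKM in cisplatin kidneys (limma adjusted p = 0.383).

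Serpina1a to Serpina1d lie side by side on chromosome 12, and their start regions are shown because they are near copies of each other that fell together. The sequences are from RefSeq on build GRCm38.p6, minus strand, 250 bases before to 50 bases after each annotated start: chr12:103863570-103863869 for Serpina1a, chr12:103738140-103738439 for Serpina1b, chr12:103904901-103905200 for Serpina1c and chr12:103773584-103773883 for Serpina1d. Capitals mark the letters GTTAAT, an arm of the site bound by the liver and kidney factor HNF1, searched on both strands.
Serpina1a: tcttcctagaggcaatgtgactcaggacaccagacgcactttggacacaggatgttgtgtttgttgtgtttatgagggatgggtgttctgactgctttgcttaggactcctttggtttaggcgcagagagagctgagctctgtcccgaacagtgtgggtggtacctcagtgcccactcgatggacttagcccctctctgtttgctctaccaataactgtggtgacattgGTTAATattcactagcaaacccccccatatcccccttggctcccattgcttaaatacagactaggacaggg
Serpina1b: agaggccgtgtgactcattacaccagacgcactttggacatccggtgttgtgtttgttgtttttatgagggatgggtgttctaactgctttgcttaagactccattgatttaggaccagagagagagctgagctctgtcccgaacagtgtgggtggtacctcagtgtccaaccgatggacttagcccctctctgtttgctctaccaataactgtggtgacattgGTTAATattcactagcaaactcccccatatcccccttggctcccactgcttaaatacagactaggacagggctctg
Serpina1c: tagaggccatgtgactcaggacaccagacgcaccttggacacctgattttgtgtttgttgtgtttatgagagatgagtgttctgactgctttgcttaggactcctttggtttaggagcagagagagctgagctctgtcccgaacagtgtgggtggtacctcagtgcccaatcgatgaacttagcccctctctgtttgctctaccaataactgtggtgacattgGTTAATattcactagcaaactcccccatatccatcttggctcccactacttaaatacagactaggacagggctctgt
Serpina1d: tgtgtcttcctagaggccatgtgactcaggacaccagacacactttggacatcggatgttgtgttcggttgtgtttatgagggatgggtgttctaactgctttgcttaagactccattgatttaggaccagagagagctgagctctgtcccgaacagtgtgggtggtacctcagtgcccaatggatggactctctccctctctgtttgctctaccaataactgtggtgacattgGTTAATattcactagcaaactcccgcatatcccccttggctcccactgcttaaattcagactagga
In aligned bases the windows were 91.7 to 94.9% identical, and each held GTTAAT once, at -21, -26, -27 and -16 from the start in Serpina1a, Serpina1b, Serpina1c and Serpina1d. Of 209 RefSeq start regions of lower genes, 12.9% held these letters, against 9.26% of 54 of higher genes, 4.81% of 12763 of genes tested and 7.1% of all 32851 in the table. The letters TATAAA, known as a core promoter element, were in 13.9% for lower genes, 9.26% for higher genes and 7.58% for genes tested. Over all 32851 start regions the share was 13.6%, close to that of the lower genes. AAAGTCCA, a core of HNF4 sites, was in 2.39% for lower genes, 0% for higher genes and 1.17% for genes tested. The 3 motifs were counted separately on both strands, and a start region can hold more than one of them. Such a match is a description of the letters, and some genes have several start regions. Hnf4a, a leading factor of the proximal tubule, averaged 94.3 ± 13.7 FPKM in combination kidneys and 92.4 ± 18.5 FPKM in cisplatin kidneys and did not pass (limma adjusted p = 0.925).

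Some lower genes were neighbours in the genome. In the RefSeq order of tested genes, 46 of the 275 called genes lay in 19 runs of adjacent genes called the same way. How many such runs would arise by chance was not computed. Some runs hold close paralogs, such as the Serpina1 and Akr1c genes, whose reads may be shared. The longest run, on chromosome 12, held 7: Ppp4r4, Serpina10, Serpina1f, Serpina1b, Serpina1d, Serpina1a and Serpina1c, all lower. Plin4, Plin5 and Lrg1 formed a run of lower genes on chromosome 17. Pairs of related neighbours on chromosome 13 were Akr1c14 with Akr1c18, Irx1 with Irx2, and Bhmt2 with Dmgdh, all lower. On chromosome 7, Scnn1g and Scnn1b were neighbours that both rose. Strandedness of the libraries is not given, so reads of overlapping neighbours could not be assigned by strand.

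In the thick ascending limb list the largest fall was in the salt cotransporter, and uromodulin was among the 8 lower genes. Slc12a1 (20495), the NKCC2 cotransporter, had 5.33, 3.39, 4.84 and 5.42 FPKM in combination libraries, against 31.9, 12.6, 60.8 and 28.1 FPKM in cisplatin libraries and 96.3, 88.9, 96.5 and 98.95 FPKM in vehicle libraries. The cisplatin libraries spread widely, with library 2 lowest and library 3 highest, yet the lowest was above every combination library, and all vehicle libraries were higher still. In the fit, the log2 fold change was -2.40 ± 0.32 (SE, n = 4; limma adjusted p = 0.000906). Umod (22242), which encodes the main protein of normal urine, had 134, 72.4, 73.5 and 86.4 FPKM in combination libraries, against 315, 142, 312 and 221 FPKM in cisplatin libraries and 803, 783, 782 and 747 FPKM in vehicle libraries. Its highest combination library, library 1, was close to its lowest cisplatin library, library 2, without overlap (log2 fold change -1.40 ± 0.23, limma adjusted p = 0.00476).

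The Umod start region is printed because it carries GTTAAT, in capitals, on the same terms as above (RefSeq, GRCm38.p6, chr7:119479213-119479512, minus strand, match at -202).
Umod: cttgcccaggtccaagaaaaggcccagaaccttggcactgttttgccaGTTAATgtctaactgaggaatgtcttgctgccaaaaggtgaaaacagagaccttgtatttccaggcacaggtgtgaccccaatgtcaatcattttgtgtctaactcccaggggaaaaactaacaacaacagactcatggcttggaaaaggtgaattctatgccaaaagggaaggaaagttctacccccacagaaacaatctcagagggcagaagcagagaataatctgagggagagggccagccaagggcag

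Factors and regulators of this limb fell too. The homeobox factor Irx1 (16371) had 1.9, 1.78, 1.86 and 1.85 FPKM in combination libraries, against 8.66, 4.85, 8.23 and 7.86 FPKM in cisplatin libraries and 6.3, 7.34, 12.6 and 8 FPKM in vehicle libraries. Cisplatin libraries were within the range of vehicle or just below it, and the combination libraries were nearly identical to each other and lower (log2 fold change -1.53 ± 0.18, limma adjusted p = 0.000311). Its neighbour Irx2 ranged over 1.4 to 1.81 FPKM in combination libraries, against 3.08 to 7.19 FPKM in cisplatin libraries and 3.38 to 3.97 FPKM in vehicle libraries (limma adjusted p = 0.00099). Ppp1r1b, the phosphatase inhibitor DARPP-32, ranged over 1.41 to 1.77 FPKM in combination libraries, against 3.2 to 10.6 FPKM in cisplatin libraries and 14.2 to 20.5 FPKM in vehicle libraries. Slc12a1, Irx1, Ppp1r1b and Umod kept their calls without any one library. The other 4 calls did not: Cldn19, a claudin of the paracellular cation path (log2 fold change -0.84, limma adjusted p up to 0.121 without combination library 3), Tmem207 (-0.83, up to 0.121 without combination library 2), the nuclear receptor gene Esrrb (-0.46, up to 0.0807 without combination library 3) and Stk39, a kinase that activates Slc12a1 (-0.31, up to 0.098 without combination library 4). The list count was 4 without combination library 2, 3 or 4, and 5 without cisplatin library 4 or vehicle library 1 or 3. In sum over all its 23 genes, tested or not, the list gave 325 to 418 FPKM in combination libraries, against 400 to 681 FPKM in cisplatin libraries and 1621 to 1794 FPKM in vehicle libraries, so the first 2 groups overlapped.

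**Figure D4:**
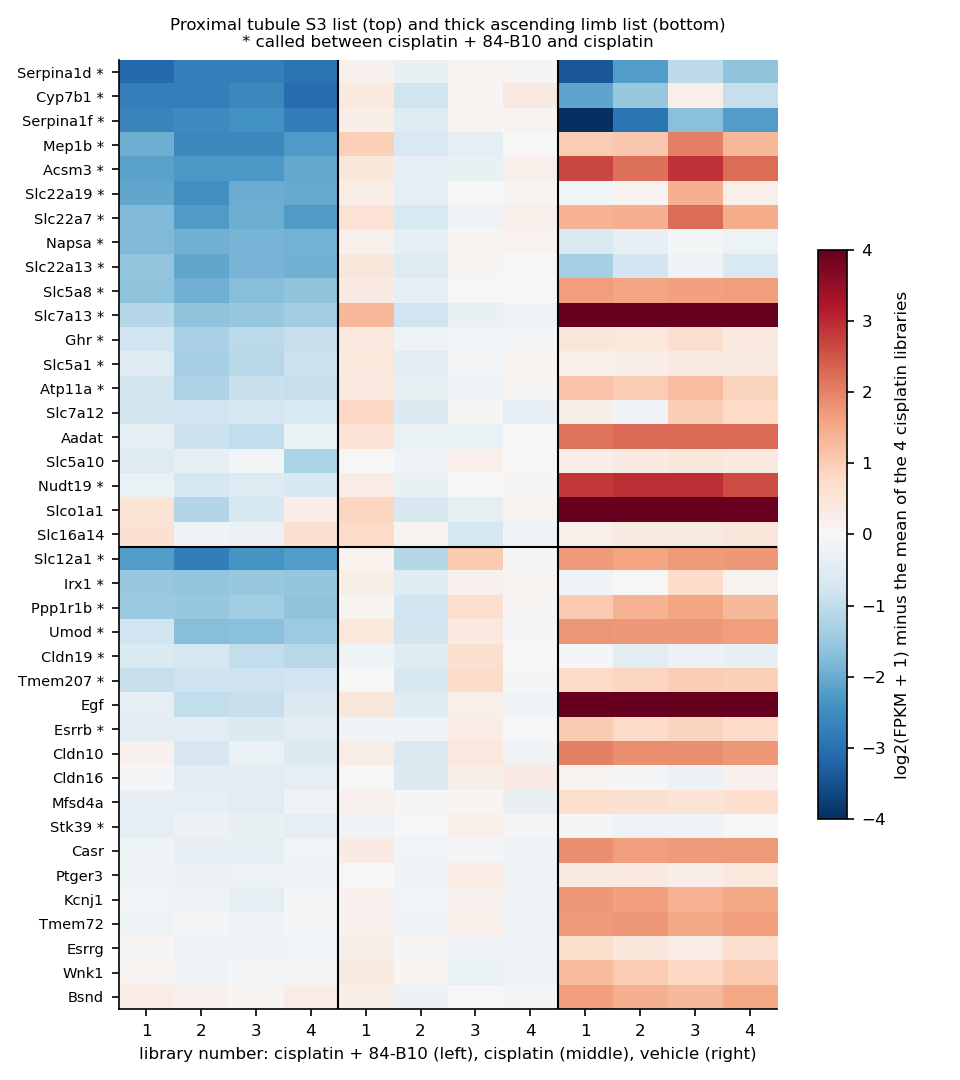
Log2(FPKM + 1) minus the mean of the cisplatin libraries, for the 20 tested genes of the S3 list (top) and 19 of the 20 of the thick ascending limb list (bottom), with combination, cisplatin and vehicle libraries from left to right. An asterisk marks genes with an adjusted p under 0.05 (15 in the S3 list and 8 in the thick ascending limb list), and colours are capped at 4 log2 units either way, which Slc7a13, Slco1a1 and Egf exceed in vehicle libraries.

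Earlier proximal segments held fewer changes. The only call in the S1 list was a rise: Slc7a8 (50934), the basolateral carrier of neutral amino acids, had 76.2, 76.7, 72.95 and 80.8 FPKM in combination libraries, against 61.4, 62.9, 49.2 and 57.7 FPKM in cisplatin libraries and 95.8, 87.8, 85.5 and 88.3 FPKM in vehicle libraries. Combination libraries lay between the other groups without overlapping either (log2 fold change 0.41 ± 0.07, limma adjusted p = 0.00696). Slc5a2, the glucose carrier SGLT2 of S1, had 161 ± 32.4 FPKM in combination kidneys and 126 ± 26.8 FPKM in cisplatin kidneys, with overlap and a limma adjusted p of 0.274. In the S2 list Slco4c1, an organic anion carrier, was lower at 0.28, 0.09, 0.29 and 0.29 FPKM in combination libraries, against 2.85, 1.79, 0.96 and 1.34 FPKM in cisplatin libraries (limma adjusted p = 0.00594). Vehicle libraries had 0.49, 0.96, 1.49 and 1.11 FPKM and overlapped cisplatin, so the gene was low in every group. The other 2 S2 calls, Slc16a4 (log2 fold change -0.67) and the organic cation carrier Slc22a2, or OCT2, which is known to take up cisplatin (-0.65), were lost without combination library 2 (limma adjusted p 0.0874 and 0.14). The S2 count was 1 without combination library 2, 3 or 4 or cisplatin library 4.

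Among genes of the whole proximal tubule, Mep1a and Slc6a18 held without any one library. Mep1a, the alpha subunit of meprin, had 174, 98.3, 123 and 148 FPKM in combination libraries, against 389, 229, 255 and 265 FPKM in cisplatin libraries and 538, 530.0, 648 and 529 FPKM in vehicle libraries (log2 fold change -1.06, limma adjusted p = 0.00468). Slc6a18, a brush border carrier of neutral amino acids, had 202, 165, 164 and 182 FPKM in combination libraries, against 293, 226, 243 and 285 FPKM in cisplatin libraries and 81.4, 95.8, 95.9 and 92.8 FPKM in vehicle libraries, so that cisplatin was the highest group. Kap, the androgen-regulated kidney protein that is the most abundant transcript of the vehicle kidneys, had 5786, 5615, 5197 and 6507 FPKM in combination libraries, against 11329, 7801, 9491 and 12789 FPKM in cisplatin libraries and 61237, 65991, 69267 and 63855 FPKM in vehicle libraries. Both cisplatin-injected groups had a small part of the vehicle level, and the difference between them (log2 fold change -0.82, limma adjusted p = 0.0103) missed the threshold without combination library 3, at 0.0564, with quantile normalization, at 0.228, and without a filter on low values, at 0.372. The calls of the water channel gene Aqp1 (log2 fold change -0.82), Slc3a1 (-0.65), Mme (-0.57) and Slc27a2 (-0.48) were also lost without combination library 2, with limma adjusted p of 0.139, 0.067, 0.121 and 0.162; the list count was 3 without combination library 2 or 3 and 4 or 5 without cisplatin library 1, 3 or 4 or any vehicle library. For the endocytic receptor gene Lrp2 (megalin) the values were 26.4 ± 6.39 FPKM in combination kidneys, 29.7 ± 10.7 FPKM in cisplatin kidneys and 129.5 ± 11.8 FPKM in vehicle kidneys (limma adjusted p = 0.782), and for the phosphate carrier gene Slc34a1 they were 869 ± 336 FPKM in combination kidneys, 643 ± 279 FPKM in cisplatin kidneys and 4462 ± 84.7 FPKM in vehicle kidneys (limma adjusted p = 0.464).

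Brush border hydrolases and the renin-angiotensin genes shared several of these members. In a list of brush border hydrolases made after the values were seen, 6 of 15 tested genes fell and 1 rose. Angiotensin-converting enzyme, Ace, had 10.7, 9, 11.2 and 10.7 FPKM in combination libraries, against 26.8, 17.7, 19.6 and 25.6 FPKM in cisplatin libraries and 64.9, 61.9, 75.3 and 57.3 FPKM in vehicle libraries (log2 fold change -1.02 ± 0.12, limma adjusted p = 0.000416). The 3 groups were fully separate, with combination lowest. Agt, the angiotensinogen gene, was ordered otherwise, with 68.8, 84.1, 102 and 70.05 FPKM in combination libraries, against 150.5, 152, 198 and 185 FPKM in cisplatin libraries and 12.7, 16.9, 25.5 and 18.99 FPKM in vehicle libraries (log2 fold change -1.07, limma adjusted p = 0.00468). Of 10 tested genes of the renin-angiotensin list, 4 fell and none rose (median -0.02), among them Agt, Ace and Mme, the neprilysin gene. The count was 2 without combination library 1 or 2 or vehicle library 1, 2 or 4. Ctsa, a carboxypeptidase and the most abundant gene of that list that did not pass, averaged 157 ± 7.9 FPKM in combination kidneys and 142 ± 5.19 FPKM in cisplatin kidneys. The hydrolase that rose was Alpl, tissue-nonspecific alkaline phosphatase, with 227, 200.3, 211 and 204 FPKM in combination libraries, against 166, 160.5, 145 and 174 FPKM in cisplatin libraries and 257, 281, 266 and 274 FPKM in vehicle libraries (log2 fold change 0.38, limma adjusted p = 0.00443).

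Across transporter families, 4 of 20 tested Slc22 genes (median -0.18), 3 of 9 Slc5 genes (median -0.13), 2 of 12 Slc6 genes (median -0.14), 2 of 7 Slco genes (median -0.18) and 2 of 18 Slc30 and Slc39 metal carriers (median -0.03) fell, and none of these rose. The metal carriers were Slc39a8 (ZIP8), at 2.35 to 3.73 FPKM in combination libraries, against 6.98 to 10.5 FPKM in cisplatin libraries, and Slc39a11 (log2 fold change -1.05). Slc7 and Slc3 amino acid carriers moved both ways, with 2 of 13 higher and 2 lower (median 0.04). The higher pair was Slc7a8 and Slc3a2, the heavy chain that partners Slc7 carriers, at 236 ± 4.33 FPKM in combination kidneys and 203 ± 10.7 FPKM in cisplatin kidneys; the Slc3a2 call was lost without 11 of the 12 libraries in turn (limma adjusted p up to 0.115, without combination library 2). The lower pair, Slc7a13 and Slc3a1, lost both calls without combination library 2 or 3, and 1 of them without combination library 4, cisplatin library 3 or 4 or any vehicle library. The abundant urate exchanger Slc22a12 did not pass, at 182 ± 75.97 FPKM in combination kidneys and 214 ± 75.3 FPKM in cisplatin kidneys, nor did Slc7a7 (59.7 ± 14.4 FPKM in combination kidneys, 43.5 ± 13.1 FPKM in cisplatin kidneys; log2 fold change 0.46, limma adjusted p = 0.275). On the estimated counts of 10 libraries Slc7a7 passed as higher, with log2 fold changes of 0.78 in both edgeR (adjusted p = 0.0435) and DESeq2 (adjusted p = 0.000499). Those 10 lack cisplatin libraries 1 and 2, the highest of their group for Slc7a7. They had 62.5 and 41.65 FPKM, against 33.6 and 36.05 FPKM in cisplatin libraries 3 and 4. None of the 7 Slc2, 9 Slc4, 5 Slc26, 4 Slc13 or 4 Slc17 genes tested passed.

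Steroid and drug metabolising enzymes held the largest single fall. Akr1c18 (105349), which inactivates progesterone, had 1.45, 1.72, 1.8 and 1.55 FPKM in combination libraries, against 22.99, 15.7, 38.1 and 34.8 FPKM in cisplatin libraries and 0.06, 0.7, 5.1 and 0.63 FPKM in vehicle libraries. Combination and vehicle libraries were both low, and the cisplatin libraries stood alone (log2 fold change -3.38 ± 0.42, limma adjusted p = 0.000511). Its neighbour Akr1c14, a steroid reductase, was highest in vehicle instead, with 4, 2.2, 3.51 and 2.7 FPKM in combination libraries, against 20.7, 11.4, 14.2 and 15.8 FPKM in cisplatin libraries and 70.1, 69.9, 82.4 and 76.3 FPKM in vehicle libraries (limma adjusted p = 1.16e-05). Altogether 3 of 14 tested aldo-keto reductases fell (median 0.04), the other being Akr1d1, a reductase of bile acid synthesis (log2 fold change -1.01; limma adjusted p 0.0834 without combination library 2). Among 17 Cyp2 cytochromes P450, 3 fell and none rose (median -0.01): Cyp2d9 (log2 fold change -2.27), Cyp2a4 (-1.59) and Cyp2b10 (-1.45). All 3 calls held without any one library, with the expression filter kept as set on all 12 libraries. Cyp2d9, a steroid hydroxylase, had 12.01, 14.9, 13.1 and 11.4 FPKM in combination libraries, against 61.5, 56.8, 69.7 and 75.4 FPKM in cisplatin libraries and 73.02, 92.6, 85.4 and 130.1 FPKM in vehicle libraries. Cyp2b10 was near silent in vehicle kidneys (0.13 to 0.61 FPKM) and ranged over 0.21 to 0.73 FPKM in combination libraries, against 1.59 to 4.7 FPKM in cisplatin libraries. It met the filter of 1 FPKM in 4 libraries only through the cisplatin group. Its call therefore says nothing on dependence on single cisplatin libraries, without any of which the filter would not be met. Cyp2e1, the most abundant gene of that family that did not pass, averaged 191 ± 83.99 FPKM in combination kidneys and 172 ± 90.2 FPKM in cisplatin kidneys, and none of 13 Cyp4 genes passed (median 0.01). Among 13 hydroxysteroid dehydrogenases 3 fell: Hsd17b2 (log2 fold change -1.14), Hsd17b14 (-0.98) and Hsd11b1 (-0.89), which regenerates glucocorticoid and whose limma adjusted p was 0.0655 without combination library 3. Akr1c and Cyp2 genes have close paralogs, so their levels share the doubt stated for Serpina1.

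Of 12 proximal tubule genes known to depend on androgens in mice, 5 fell and none rose (median -0.38): Cyp7b1, Acsm3, Slc7a13, Kap and Nudt19. All of them were counted above, Kap in the list shared by all proximal segments and the others in the S3 list. The count was 2 without combination library 3, and 3 without combination library 2 or 4, cisplatin library 3 or 4, or vehicle library 1, 2 or 3. The most abundant gene of that list that did not pass was Cyp4b1, with 364 ± 35.2 FPKM in combination kidneys, 351 ± 32.6 FPKM in cisplatin kidneys and 2911 ± 87.8 FPKM in vehicle kidneys.

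A pair of methyltransferase-like genes on chromosome 15 and the adhesion gene Ceacam2 were among the largest falls. Methig1 had 2.97, 2.98, 2.47 and 1.94 FPKM in combination libraries, against 26.5, 13.2, 22.6 and 22.4 FPKM in cisplatin libraries and 1.97, 4.19, 9.36 and 7.49 FPKM in vehicle libraries (log2 fold change -2.60 ± 0.32, limma adjusted p = 0.000481). Mettl7a2 had 3.18, 3.49, 2.7 and 3.65 FPKM in combination libraries, against 33.7, 15.5, 22.04 and 23.5 FPKM in cisplatin libraries and 4.97, 14.2, 37.4 and 26.8 FPKM in vehicle libraries. Vehicle libraries ranked alike in both genes, with library 1 lowest and library 3 highest. Ceacam2, an immunoglobulin family adhesion molecule, ranged over 0.52 to 1.16 FPKM in combination libraries, against 9.28 to 16.97 FPKM in cisplatin libraries and 0.07 to 4.07 FPKM in vehicle libraries (log2 fold change -2.90, limma adjusted p = 0.000511). The RefSeq start windows of Methig1 and Mettl7a2 are identical over all their bases, so their reads may be hard to tell apart; the window at chr15:100352950-100353249 (GRCm38.p6, plus strand) is shown for that reason, with TATAAA, found at -190, in capitals.
Methig1: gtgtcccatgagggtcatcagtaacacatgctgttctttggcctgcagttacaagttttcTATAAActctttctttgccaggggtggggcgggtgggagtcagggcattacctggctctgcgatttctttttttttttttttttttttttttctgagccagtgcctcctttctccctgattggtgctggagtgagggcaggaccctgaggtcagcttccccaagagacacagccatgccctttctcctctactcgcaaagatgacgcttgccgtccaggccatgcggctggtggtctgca

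Some enzymes of amino acid breakdown fell. Of 39 tested genes of amino acid breakdown 7 fell and none rose (median -0.15): Hpd, Cbs, Cth, Ivd, Hibch, Mccc2 and Gstz1. A list of methionine, cysteine and choline-derived methyl metabolism, made after the values were seen, had 10 of 32 lower and none higher (median -0.15), and 6 of these calls held without any one library. Cth, which makes cysteine from cystathionine, had 48.5, 40.5, 39.8 and 45.2 FPKM in combination libraries, against 76.6, 63.4, 68.01 and 72.1 FPKM in cisplatin libraries and 86.8, 94.7, 95.3 and 98.7 FPKM in vehicle libraries. The 3 groups were separate, with combination lowest (log2 fold change -0.67 ± 0.07, limma adjusted p = 0.000181). Cdo1, which oxidises cysteine towards taurine, had 61.96, 85.8, 78.9 and 72.5 FPKM in combination libraries, against 129, 149.8, 189.8 and 173 FPKM in cisplatin libraries and 70.8, 82.8, 86.4 and 80.4 FPKM in vehicle libraries, so that cisplatin was highest and the other 2 groups overlapped (log2 fold change -1.09, limma adjusted p = 0.000181).

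Homocysteine, choline and kynurenine enzymes of that list fell as well. Bhmt2, which remethylates homocysteine, averaged 15.1 ± 1.79 FPKM in combination kidneys, 31.5 ± 3.48 FPKM in cisplatin kidneys and 61.1 ± 2.15 FPKM in vehicle kidneys (SD, n = 4; limma adjusted p = 2.02e-05). Its neighbour Dmgdh, dimethylglycine dehydrogenase, averaged 8.51 ± 1.95 FPKM in combination kidneys, 19.2 ± 3.56 FPKM in cisplatin kidneys and 47.2 ± 3.4 FPKM in vehicle kidneys (limma adjusted p = 0.000628). Kyat3, a lyase of cysteine conjugates and a kynurenine aminotransferase, averaged 7.04 ± 1.11 FPKM in combination kidneys, 17.8 ± 1.78 FPKM in cisplatin kidneys and 15.9 ± 1.78 FPKM in vehicle kidneys (limma adjusted p = 2.09e-05). Cbs, cystathionine beta-synthase, fell by a similar step (log2 fold change -0.85). The calls of Gclc (log2 fold change -0.72), the rate-limiting enzyme of glutathione synthesis, Csad (-0.67), Ahcy (-0.39) and Mat2a (-0.34) were lost without combination library 2, with limma adjusted p of 0.0836, 0.0755, 0.0934 and 0.121. Gclc was the one member of the Nrf2 target list to pass (0 of 26 higher and 1 lower, median 0.07), at 149 ± 18.99 FPKM in combination kidneys, 246 ± 34.6 FPKM in cisplatin kidneys and 79.7 ± 19.6 FPKM in vehicle kidneys. Hpd, of tyrosine breakdown, averaged 6.37 ± 1.5 FPKM in combination kidneys and 12.7 ± 0.792 FPKM in cisplatin kidneys. Uroc1, of histidine breakdown, had 5.52, 4.78, 3.96 and 4.67 FPKM in combination libraries, against 17.03, 13.8, 13.1 and 16.1 FPKM in cisplatin libraries and 14.1, 12.9, 13.4 and 14.1 FPKM in vehicle libraries (log2 fold change -1.48 ± 0.09, limma adjusted p = 4.44e-06).

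In lipid metabolism the peroxisome list had the most members lower. Of 27 genes of mitochondrial fatty acid oxidation, 2 fell and none rose (median -0.06): Acsm3 and Acadm, the medium-chain dehydrogenase (log2 fold change -0.42; limma adjusted p 0.0778 without combination library 2). That count was 5 without combination library 1, and 1 without combination library 2, 3 or 4 or cisplatin library 1 or 4. Acsm2, the most abundant of the rest, did not pass and averaged 90.2 ± 34.8 FPKM in combination kidneys, 81.9 ± 39.5 FPKM in cisplatin kidneys and 907 ± 38.7 FPKM in vehicle kidneys. Peroxisomal genes had 7 of 36 lower and none higher (median -0.12, 30 of 36 with a negative log2 fold change), and the calls of Crot and Acox2 held without any one library. Crot, which moves shortened acyl groups out of peroxisomes, averaged 47.98 ± 2.15 FPKM in combination kidneys, 75.8 ± 12.2 FPKM in cisplatin kidneys and 107 ± 9.94 FPKM in vehicle kidneys (limma adjusted p = 0.00272). Acox2, the branched-chain acyl-CoA oxidase, averaged 14.96 ± 2.31 FPKM in combination kidneys and 22.2 ± 2.96 FPKM in cisplatin kidneys. The peroxisome count was 2 without combination library 2 or 3 or cisplatin library 1 or 4, 3 without combination library 4 or cisplatin library 3, and 4 without vehicle library 1, 2 or 3. Phyh, of branched fatty acid breakdown, did not pass, at 285 ± 17.9 FPKM in combination kidneys and 280.2 ± 13.9 FPKM in cisplatin kidneys.

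Scd1, which desaturates fatty acids, was the 1 of 19 genes of fatty acid synthesis to fall (none rose, median -0.04), with 6.56, 5.01, 4.82 and 7.72 FPKM in combination libraries, against 25.2, 20.6, 12.5 and 18.5 FPKM in cisplatin libraries and 10.2, 16.8, 20.5 and 25.1 FPKM in vehicle libraries. Combination libraries lay below all others (log2 fold change -1.50, limma adjusted p = 0.00426). Of 23 genes of cholesterol synthesis 2 fell, Cyp51 (log2 fold change -0.47) and Ebp (-0.29), and the count was 0 without combination library 3 or 4 or cisplatin library 3 or 4. Hmgcs1 did not pass, at 51.6 ± 3.89 FPKM in combination kidneys and 64.2 ± 8.6 FPKM in cisplatin kidneys (limma adjusted p = 0.0923). The lipid droplet coat gene Plin4 ranged over 0.96 to 1.86 FPKM in combination libraries, against 2.47 to 6.42 FPKM in cisplatin libraries and 0.37 to 0.42 FPKM in vehicle libraries (limma adjusted p = 0.004). The fatty acid receptor gene Cd36 averaged 50.4 ± 12.4 FPKM in combination kidneys, 93.1 ± 21.2 FPKM in cisplatin kidneys and 180.3 ± 18.6 FPKM in vehicle kidneys; its limma adjusted p of 0.0159 became 0.0631 without combination library 3.

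Genes of secreted plasma proteins were lower in combination kidneys in part. In the symbol family of apolipoproteins, which takes in the deaminase gene Apobec2, 5 of 18 fell and none rose (median -0.02): Apoh, Apoa4, Apoc3, Apob and Apobec2. Apoh, which binds phospholipids, ranged over 1.38 to 1.85 FPKM in combination libraries, against 4.55 to 6.14 FPKM in cisplatin libraries and 6.08 to 7.69 FPKM in vehicle libraries (log2 fold change -1.26, limma adjusted p = 8.76e-06). Apoc3, an inhibitor of lipoprotein lipase, had 34.1, 46.4, 41.05 and 35.7 FPKM in combination libraries, against 55.2, 80.4, 116 and 109 FPKM in cisplatin libraries and 6.5, 7.3, 10.8 and 8.99 FPKM in vehicle libraries, and Apob averaged 8.53 ± 1.29 FPKM in combination kidneys, 14.4 ± 2.17 FPKM in cisplatin kidneys and 6.24 ± 1.02 FPKM in vehicle kidneys. The Apobec2 call was lost without 4 libraries in turn (limma adjusted p up to 0.0914, without cisplatin library 4). Apoe, the most abundant of the family, did not pass (169.8 ± 24.6 FPKM in combination kidneys, 157 ± 28.7 FPKM in cisplatin kidneys). Several of these genes are best known from liver, and 2 of 7 tested genes of the liver marker list fell, Serpina1a and Apoc3 (list median -0.50). The list summed to 102 to 140.01 FPKM in combination libraries, against 180.4 to 282 FPKM in cisplatin libraries and 125 to 219.9 FPKM in vehicle libraries. Alb, which defines hepatocytes, was at 2.16 ± 0.567 FPKM in combination kidneys, 1.97 ± 0.352 FPKM in cisplatin kidneys and 6.16 ± 1.58 FPKM in vehicle kidneys (SD, n = 4; limma adjusted p = 0.842).

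Of 16 acute phase genes 3 fell and none rose (median -0.17). Saa1, a serum amyloid gene, had 16.6, 25.6, 17.8 and 11.8 FPKM in combination libraries, against 29.2, 42.8, 50.3 and 45.6 FPKM in cisplatin libraries, and is listed at 0 in all 4 vehicle libraries (log2 fold change -1.21, limma adjusted p = 0.00338). Cp, the copper protein ceruloplasmin, had 40.8, 46.8, 47.4 and 46.4 FPKM in combination libraries, against 62.8, 67.6, 67.3 and 64.5 FPKM in cisplatin libraries and 3.48, 4.04, 5.03 and 3.98 FPKM in vehicle libraries (log2 fold change -0.52, limma adjusted p = 0.00272). Saa2, a near copy of Saa1, was lower with overlap and lost its call without 10 of the 12 libraries in turn (limma adjusted p up to 0.118, without combination library 4). The count of lower acute phase genes was 7 without cisplatin library 1. Lrg1, a secreted leucine-rich glycoprotein, had 39.7, 59.6, 60.8 and 48.9 FPKM in combination libraries, against 80.9, 128, 128 and 141 FPKM in cisplatin libraries and 3.26, 3.87, 3.58 and 3.62 FPKM in vehicle libraries (log2 fold change -1.17, limma adjusted p = 0.0012). The chemokine Ccl28, which attracts lymphocytes to mucosa, ranged over 2.12 to 2.84 FPKM in combination libraries, against 8.67 to 14.4 FPKM in cisplatin libraries and 1.57 to 3.57 FPKM in vehicle libraries (limma adjusted p = 3.25e-05). Arg2, mitochondrial arginase, was one of the most regular: 29.01, 28.5, 28.9 and 31.6 FPKM in combination libraries, against 56.2, 58.6, 73.7 and 66.7 FPKM in cisplatin libraries and 0.6, 0.78, 1.23 and 0.53 FPKM in vehicle libraries.

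Genes that rose did so by small, even steps. Foxi1 (14233), the forkhead factor of intercalated cells, had 22.4, 23.3, 25.5 and 24.1 FPKM in combination libraries, against 17.9, 18.4, 16.5 and 16.3 FPKM in cisplatin libraries and 16.9, 14.03, 15.8 and 15.4 FPKM in vehicle libraries. Combination libraries were above all of the others (log2 fold change 0.44 ± 0.06, limma adjusted p = 0.00175). The epithelial sodium channel subunit genes Scnn1b and Scnn1g rose, and so did the potassium channel subunit gene Kcne1. Scnn1b had 41.9, 44.7, 40.1 and 48.1 FPKM in combination libraries, against 33.4, 33.8, 34.1 and 33.9 FPKM in cisplatin libraries and 27.7, 25.5, 22.4 and 28.5 FPKM in vehicle libraries (log2 fold change 0.36, limma adjusted p = 0.0218). All 3 principal cell calls depended on single libraries, with limma adjusted p of up to 0.0743 for Scnn1b (without combination library 2), 0.0965 for Kcne1 (without cisplatin library 4) and 0.142 for Scnn1g (without combination library 3). The count was 0 without combination library 2 or 4 or cisplatin library 4, and 1 without combination library 3 or cisplatin library 3. The count of intercalated cell genes was 2 without combination library 1 and 3 without cisplatin library 1. The water channel gene Aqp2 did not pass, at 319 ± 93.5 FPKM in combination kidneys, 234 ± 34.8 FPKM in cisplatin kidneys and 108 ± 26.4 FPKM in vehicle kidneys.

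Other named risers had varied functions. Of the 54 higher genes, 43 were in no list or family, against 124 of the 221 lower genes and 10444 of the 12428 genes tested. The lists made after the values were seen are left out of these counts. Mustn1 (66175) had 6.18, 5.65, 5.95 and 5.62 FPKM in combination libraries, against 3.09, 3.23, 3.04 and 3.02 FPKM in cisplatin libraries and 2.75, 2.65, 3.47 and 3.11 FPKM in vehicle libraries, so that all combination libraries were above all others (limma adjusted p = 3.25e-05). Fosl1, an AP-1 subunit, had 84.7, 72.9, 81.5 and 83.01 FPKM in combination libraries, against 58.8, 61.3, 59.2 and 63.5 FPKM in cisplatin libraries and 0 to 0.04 FPKM in vehicle libraries (log2 fold change 0.40, limma adjusted p = 0.000921). It was the 1 of 19 immediate early and AP-1 genes to pass (median 0.10). Cxcl2, a neutrophil-attracting chemokine, was the 1 of 20 inflammation genes to pass (median 0.06), with 11.6, 10.1, 10.7 and 11.3 FPKM in combination libraries, against 8.41, 6.62, 8.92 and 7.89 FPKM in cisplatin libraries and 0 to 0.06 FPKM in vehicle libraries. Pgam2, a phosphoglycerate mutase of glycolysis, had 66.4, 70.2, 70.1 and 70.6 FPKM in combination libraries, against 49.1, 48.1, 60.2 and 49.2 FPKM in cisplatin libraries and 98.7, 100.3, 87.5 and 93.8 FPKM in vehicle libraries. Foxi1, Mustn1, Fosl1, Cxcl2 and Pgam2 kept their calls without any one library. In edgeR's quasi-likelihood test on the estimated counts of 10 libraries, the Benjamini-Hochberg adjusted p was 0.296 for Cxcl2 and 0.0779 for Pgam2, and with a pseudocount of 0.1 limma gave 0.178 for Cxcl2. Calls of the growth factor gene Mdk (log2 fold change 0.44), Spink8 (0.46), Rtl8b (0.45), Ltc4s (0.41) and Tfap2a (0.34) were lost without single libraries, with limma adjusted p of up to 0.105 without combination library 4 for Mdk, 0.0982, 0.104 and 0.114 without combination library 2 for Spink8, Rtl8b and Ltc4s, and 0.0936 without combination library 3 for Tfap2a.

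The injury and p53 lists held no call. None of 34 tubular injury genes passed (median 0.09), and 2 of them were higher without overlap, as were 4.01% of all genes tested. Havcr1 (171283), the kidney injury molecule KIM-1, had 808, 549, 647 and 665 FPKM in combination libraries, against 744, 546, 559 and 652 FPKM in cisplatin libraries and 0.18, 0.5, 1.11 and 0.34 FPKM in vehicle libraries. Both cisplatin-injected groups overlapped far above vehicle, and the log2 fold change between them was 0.09, with a 95% interval of -0.26 to 0.45 (limma adjusted p = 0.838). Lcn2 (16819), the injury marker NGAL, had 819.8, 1631, 1560.2 and 948 FPKM in combination libraries, against 813, 1677, 1618 and 1367 FPKM in cisplatin libraries and 0.24, 0.54, 0.39 and 1.58 FPKM in vehicle libraries (log2 fold change -0.15, interval -0.77 to 0.46, limma adjusted p = 0.846). None of 33 p53 targets passed (median 0.06), among them the cell cycle inhibitor gene Cdkn1a, at 647 ± 43.4 FPKM in combination kidneys, 570.1 ± 45.5 FPKM in cisplatin kidneys and 2.34 ± 0.345 FPKM in vehicle kidneys (log2 fold change 0.18, interval 0.00 to 0.36). Trp53 itself, the p53 gene, rose slightly to 57.2 ± 1.63 FPKM in combination kidneys, against 50.01 ± 1.62 FPKM in cisplatin kidneys (log2 fold change 0.19), a call that was lost without 11 of the 12 libraries in turn (limma adjusted p up to 0.138, without combination library 3). No gene of the cell cycle (19 tested), cell death (27), interferon (21), extracellular matrix (20), keratin (10), annexin (10) or S100 (12) groups passed.

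Mitochondrial lists bear on the compound's described target, and ferroptosis lists on a form of iron-dependent cell death. Lonp1 itself had 48.7, 47.2, 48.6 and 49.9 FPKM in combination libraries, against 49.6, 46.5, 45.4 and 46.6 FPKM in cisplatin libraries and 53.2, 53.6, 54.8 and 53.9 FPKM in vehicle libraries. Combination and cisplatin libraries overlapped, and the log2 fold change of 0.05 had a 95% interval of -0.04 to 0.14 (limma adjusted p = 0.631). None of 18 mitochondrial protease and chaperone genes passed (median -0.02), nor any of 37 complex I genes (0.04), 35 genes of complexes II to V (-0.00), 21 genes of mitochondrial dynamics and biogenesis (-0.03), 22 citric acid cycle genes (-0.06) or 78 mitochondrial ribosomal proteins (0.04). Hspa9, the mitochondrial chaperone mortalin, averaged 230.1 ± 16.6 FPKM in combination kidneys and 236 ± 12.2 FPKM in cisplatin kidneys. None of 18 genes known to promote ferroptosis passed (median 0.02). Of 23 known to restrain it, 1 rose (Slc3a2) and 2 fell (Gclc and Scd1; median 0.02); the rise was absent without 11 of the libraries in turn, and the count of falls was 1 without 5 of them. Gpx4, the peroxidase of lipid hydroperoxides, had 969, 959, 885 and 872 FPKM in combination libraries, against 966, 855, 1087 and 1063 FPKM in cisplatin libraries (log2 fold change -0.10, interval -0.28 to 0.08, limma adjusted p = 0.597). Fth1, the ferritin heavy chain gene, averaged 8647 ± 685 FPKM in combination kidneys, 8811 ± 555 FPKM in cisplatin kidneys and 4360.4 ± 226 FPKM in vehicle kidneys; its log2 fold change of -0.03 did not pass (limma adjusted p = 0.921) and became 0.86 with quantile normalization (adjusted p = 0.0418).

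**Figure D5:**
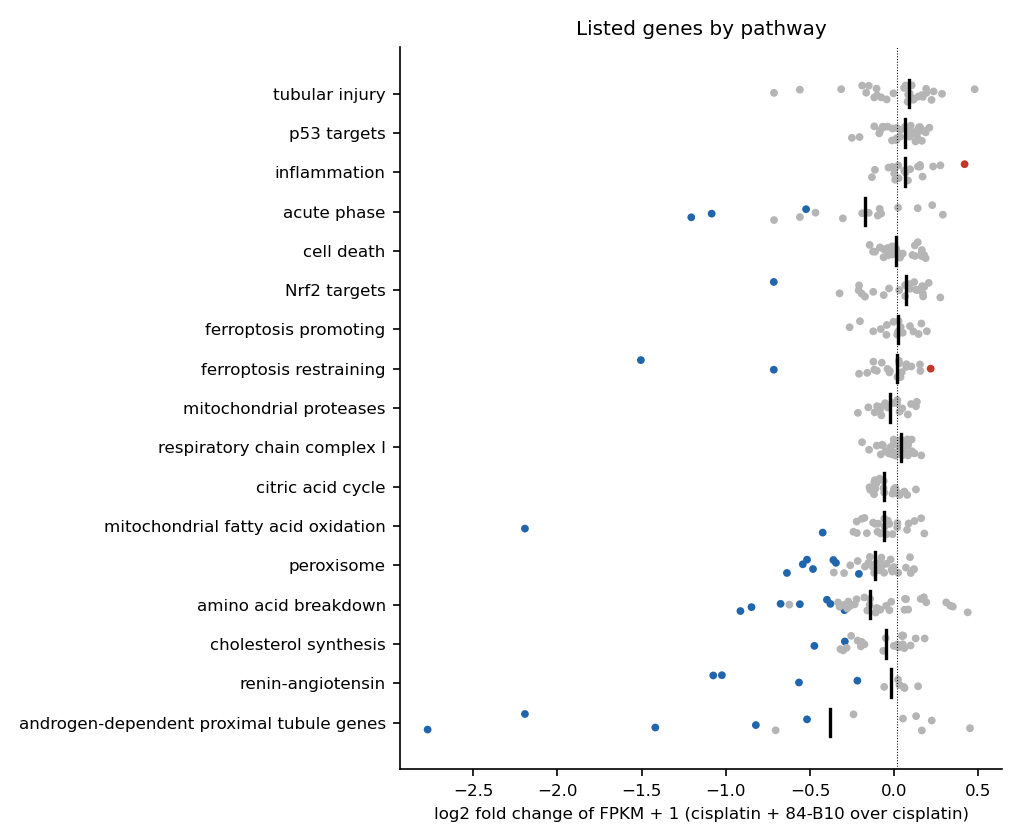
Log2 fold change, combination over cisplatin, of every tested gene in each pathway list, drawn as for the segments (blue lower, red higher, black bar the list median, dotted line the median of all genes tested, 0.02). The androgen-dependent proximal tubule list, whose calls are also in the proximal segment lists, has the lowest median (-0.38). The injury, p53, mitochondrial and ferroptosis lists hold no more than 1 higher or 2 lower genes each.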

How the data were processed

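RNA of mouse kidney was sequenced in 12 libraries, 3 groups of 4 by treatment label. The authors deposited 1 table with FPKM of 19036 genes in all 12 libraries, rounded to 2 decimals, and estimated counts per gene (34.31% not whole). Per the file headers, count columns name 10 libraries, not cisplatin 1 and 2; a block of 14 per-sample columns under displaced or missing headings was not used. The submitters' processing notes name the tools HISAT2 2.0.4, Bowtie2 2.2.5 and also RSEM 1.2.12, with no roles. Build, annotation, kit and strand setting were not given in the sources used here. Sequences and gene order are from RefSeq on GRCm38.p6, and no coordinate comes from the deposited table.

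Genes with at least 1 FPKM in at least 4 libraries (12428) were tested as log2(FPKM + 1) with limma 3.58.1 in R 4.3.3: a linear model of 3 group means over 12 libraries, 9 residual degrees of freedom, variances moderated along the mean (trend), two-sided, Benjamini-Hochberg adjusted p under 0.05. Fold changes are combination over cisplatin on the log2(FPKM + 1) scale, which understates changes of low genes. The written plan set limma on FPKM as the test, with edgeR beside it if counts named every library. With counts for 10 libraries only, edgeR 4.0.16 and DESeq2 1.42.0 ran on the rounded estimated counts as alternatives. Other alternatives were a pseudocount of 0.1, no filter, a mean of at least 5 FPKM, median-of-ratios scaling, quantile normalization, TPM, the 8 compared libraries alone, array weights, a block on the replicate number, a minimum log2 change of 1 (treat), and leaving out each library. When a library was left out, the filter stayed as set on all 12. The limma step was tested on simulated data. Sequence work used Python 3.11.15 and Biopython 1.88.

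The comparison, 53 gene lists and 59 symbol families were chosen with earlier results of these data known, and 4 further lists were made after their values were seen. Named genes were 10 anchors (Havcr1, Lcn2, Cdkn1a, Lonp1, Gpx4, Slc34a1, Lrp2, Umod, Slc12a1, Napsa), the 12 lowest and 8 highest fold changes among passing genes without overlap and with at least 5 FPKM in the higher group (without predicted genes), and, for each list described, 3 passing genes by largest moderated statistic and the most abundant gene not passing; other genes were named after their values were seen. Values of some genes are not reported here. No 2 FPKM columns were identical, and counts differed between libraries of a group by a chi-square of at least 4.34 per degree of freedom.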

Additional observations from a re-analysis of the deposited data

Results flagged for a closer look

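Among 96 named genes, each checked in the combination and the cisplatin group (192 groups of 4), 17 groups had 1 library set apart from the other 3 by Dixon's criterion; chance alone sets a library apart in about 1 group in 20. Cisplatin library 1 was the one set apart in 9 of them, always as the highest of its group. In FPKM, these were Slc34a1 at 1061.17 (other cisplatin libraries 487.85 to 515.89), Lrp2 at 45.68 (22.54 to 26.05), Slc16a4 at 39.94 (25.49 to 27.85), Scnn1g at 18.6 (15.9 to 16.28), Acsm2 at 140.29 (52.92 to 67.85), Hspa9 at 254.19 (228.74 to 230.74), Mme at 15.63 (9.79 to 10.69), Slc3a1 at 243.14 (154.15 to 167.22) and Slc7a13 at 23.8 (4.69 to 7.61).

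Combination library 1 was the lowest of its group for Cdkn1a, at 582.11 FPKM (other combination libraries 663.36 to 677.01), Pgam2, at 66.39 (70.1 to 70.6), and Cp, at 40.76 (46.4 to 47.41), and the highest for Slc16a4, at 24.31 (15.91 to 16.93). Combination library 2 was the lowest for Slco4c1, at 0.09 FPKM (0.28 to 0.29). Cisplatin library 3 was the highest of its group for Pgam2, at 60.19 FPKM (48.15 to 49.25), cisplatin library 4 the highest for Ctsa, at 149.84 FPKM (138.33 to 140.26), and cisplatin library 2 the lowest for Hibch, at 19.65 FPKM (22.47 to 23.04).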

How the results depend on the processing

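The lean to lower genes held under every alternative run, and the size of the call list did not. Against 275 genes (54 higher, 221 lower, 69 at least 2-fold lower, 0 at least 2-fold higher), the 8 compared libraries alone gave 176 (27 higher), array weights 417 (112 higher), a minimum log2 change of 1 gave 5 (0 higher, 5 lower, all 5 at least 2-fold), edgeR gave 307 (115 at least 2-fold lower, 4 at least 2-fold higher) and DESeq2 444 (103 higher, 341 lower, 127 and 11 at least 2-fold). TPM gave 29 higher, the FPKM of the 10 libraries with counts 31 higher, and leaving out the first libraries of both cisplatin-injected groups together, chosen after seeing the data, 19 higher. Of the 54 higher calls, edgeR shared 11, DESeq2 19 and limma on the 10 libraries with counts 12. In the same order they shared 195, 210 and 158 of the 221 lower calls. Leaving out 1 library gave 152 to 298 genes, 18 to 52 higher and 132 to 246 lower; the cause was not tested. Against 15 lower S3 genes, the alternatives gave 13 to 17, except the minimum change, which gave 3; lower thick ascending limb genes were 4 with the 8 libraries alone and 5 without the first libraries. Calls of Scd1, Apob, Hpd and Acox2 missed the threshold in limma on the 10 libraries with counts (adjusted p 0.0622, 0.059, 0.0622 and 0.0622), which has fewer samples, and Acox2 also in the 8 libraries alone (0.0526). Median-of-ratios scaling moved the median difference by -0.01 log2.

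Log2 fold changes that reversed belonged to genes that did not pass in the reported test; 1 reversed value passed itself, that of Fth1 with quantile normalization (0.8637, adjusted p = 0.0418). On the 10 libraries with counts, limma, edgeR and DESeq2 gave 0.125, 0.1339 and 0.1378 for Lrp2 and -0.06597, -0.07677 and -0.07322 for Cryab, which array weights put at -0.03902; edgeR and DESeq2 gave -0.006472 and -0.003279 for Fxyd2 and -0.005476 and -0.002273 for Phyh. Without 1 library each, the ranges were Havcr1 -0.005005 to 0.1806, Lcn2 -0.3836 to 0.02595, Lrp2 -0.2784 to 0.07929, Cyp4b1 -0.001111 to 0.1113, Cryab -0.01393 to 0.2013, Acsm2 -0.02838 to 0.4509, Phyh -0.01702 to 0.05288, Fth1 -0.06479 to 0.02673, Hspa9 -0.07396 to 0.005651, Hnf4a -0.04629 to 0.1643 and Cyp2e1 -0.07779 to 0.482. The replicate number as a block gave 316 genes (60 higher, 256 lower). As deviations from their group means, same-numbered combination and cisplatin libraries correlated at 0.561, 0.249, 0.373 and -0.238 for numbers 1 to 4. Differently numbered ones ran from -0.560 to 0.336. These values do not settle whether the numbers pair the mice, and the main test used no pairing. Depth is known for 10 libraries, and 4 per group limits small differences.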

Other observations

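Several further genes were lower in combination kidneys. C8a, a complement component, had 0.27, 0.35, 0.67 and 0.24 FPKM in combination libraries, against 3.17, 2.19, 4.37 and 3.63 FPKM in cisplatin libraries and 3.86, 3.33, 4.28 and 3.34 FPKM in vehicle libraries (log2 fold change -1.64, limma Benjamini-Hochberg adjusted p = 2.6e-05), and Ugt3a1, a glycosyltransferase, averaged 8.83 ± 2.95 FPKM in combination kidneys, 28.3 ± 10.8 FPKM in cisplatin kidneys and 129.9 ± 16.3 FPKM in vehicle kidneys (SD, n = 4). Upp2, a uridine phosphorylase, ranged over 1.36 to 2.45 FPKM in combination libraries, against 4.76 to 7.06 FPKM in cisplatin libraries and 12.1 to 15.4 FPKM in vehicle libraries. Bdh1, of ketone body use, ranged over 4.75 to 6.34 FPKM in combination libraries, against 8.99 to 16.7 FPKM in cisplatin libraries and 36.7 to 47.4 FPKM in vehicle libraries. Slc34a2, a phosphate carrier that was near silent in vehicle kidneys at 0.27 to 0.54 FPKM, ranged over 2.16 to 2.69 FPKM in combination libraries, against 5.18 to 7.72 FPKM in cisplatin libraries. Aspg, an asparaginase, ranged over 3.35 to 4.25 FPKM in combination libraries, against 9.74 to 15.7 FPKM in cisplatin libraries and 26.01 to 34.02 FPKM in vehicle libraries. These 6 calls held without any one library. C8g, a further complement component, fell by a smaller step (log2 fold change -0.44, limma adjusted p = 0.0282), a call that was lost without 5 libraries in turn.

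Thin limb and inner medulla genes gave 2 calls, both lower and neither firm. The water channel gene Aqp4 had 0.25, 0.47, 0.46 and 0.35 FPKM in combination libraries, against 2.25, 1.06, 2.34 and 1.65 FPKM in cisplatin libraries and 0.2, 0.38, 1.43 and 1.29 FPKM in vehicle libraries, and Slc5a3, the inositol carrier, ranged over 5.11 to 5.56 FPKM in combination libraries, against 6.9 to 11.3 FPKM in cisplatin libraries. The limma adjusted p of Aqp4 was up to 0.0785 (without cisplatin library 1), that of Slc5a3 up to 0.0738 (without combination library 4), and the count was 0 without any of the 4 combination libraries. Cryab, a small heat shock protein and the most abundant gene of that list that did not pass, averaged 626 ± 92 FPKM in combination kidneys, 589 ± 107 FPKM in cisplatin kidneys and 31.8 ± 10.1 FPKM in vehicle kidneys. Among 25 nephron transcription factors, Foxi1 and Tfap2a rose and Pou3f3 fell (median 0.05); the Pou3f3 call (log2 fold change -0.35) was lost without 9 libraries in turn, with an adjusted p up to 0.125 without combination library 2.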
